A study of Mus musculus with 12 samples.

Results

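The 8 genes described here mark the lining of the third ventricle and were measured in 12 libraries of mouse hypothalamus. They are Foxj1, Ccdc153 and Tmem212, taken as markers of ciliated ependymal cells, and Rax, Gpr50, Dio2, Vim and Nes, taken as markers of tanycytes. They were chosen by symbol, with no condition on level, and are 8 of the 23256 genes in the deposited table. Of the 8 genes, 6 reached the mean of 1 RPKM that was required for the main test. Dio2 and Rax lay below it and were tested in a fit without that filter.

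Fertilized eggs were of mixed C57/Bl6:129S6/SvEvTac origin and were injected with miRNA mimics or with vehicle. The miR group (6 libraries, replicates 1 to 6) received a pool of 9 miRIDIAN mimics in DPBS (0.11 ng/uL of each, 1 ng/uL overall): miR-375, miR-29c, miR-204, miR-532-3p, miR-30c, miR-698, miR-30a, miR-193-5p and miR-32. The PBS group (6 libraries, replicates 7 to 12) received DPBS without mimics. CD1 dams carried the embryos of both groups, and every animal sampled was a male of 18 to 20 weeks. The paraventricular nucleus (PVN) was cut out with a 1.0 mm hollow needle from 2 slices of 300 µm lying between -0.50 and -1.10 mm from bregma. Each animal gave 1 stranded poly-A library, for which 250 ng of total RNA was used. Litters and dams are not given per animal, so p-values measure the spread between these animals.

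The PVN lies beside the third ventricle, whose wall is formed by ependymal cells with motile cilia that move cerebrospinal fluid and, lower down, by tanycytes. Tanycytes are elongated glia with a process that reaches into the hypothalamus. They are known for local activation of thyroid hormone, for contact with cerebrospinal fluid and portal blood, and for keeping features of neural stem cells. In a punch of whole tissue, fewer cells of a type and less RNA per cell cannot be told apart.

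Depth, estimated from the smallest steps in the deposited values, ran from 22.8 M to 45.2 M reads in miR libraries and from 27.6 M to 38.2 M reads in PBS libraries. Levels are read counts scaled by transcript length and library size (RPKM), differences are miR minus PBS on the log2(RPKM + 0.5) scale, and adjusted p-values are from limma with Benjamini-Hochberg adjustment over all genes tested. Among the 13273 genes tested, 0 (0%) passed an adjusted p of 0.05, and 2687 (20.2%) had an unadjusted p below 0.05. Among PBS libraries, 4 (replicates 8, 9, 10 and 12) stood apart with 158 to 316 RPKM of the noncoding RNA Meg3, against 49.9 to 68.1 RPKM in miR libraries and 50.6 and 58.0 RPKM in PBS replicates 7 and 11. Leng8 averaged 9.19 ± 0.879 RPKM in miR libraries and 27.4 ± 14.2 RPKM in PBS libraries, and all 6 RNAs listed for this difference, Snrnp70 among them, averaged lower in miR (median log2 difference -1.18, and -0.02 without those 4 libraries). Values without those 4 libraries are given where they alter a statement.

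None of the 8 genes differed between miR and PBS at an adjusted p of 0.05 (0 of 8, limma). None reached an unadjusted p of 0.05 in limma either (0 of 8, against 20.2% of the genes tested). The groups overlapped in each (0 of 8 without overlap, against 0.482% of the genes tested). Of the 8 genes, 5 averaged higher in miR libraries on the log2 scale and 3 averaged lower. With the 4 PBS libraries of high Meg3 left out, again 0 of 8 passed. The levels themselves spanned a wide range. Tmem212, at a mean of 40.4 RPKM over all libraries, and Ccdc153, at 40.1 RPKM, were above 93.7% and 93.6% of genes, and Rax, at 0.0442 RPKM, was above 24.3%. All 3 ciliated markers were above 18 RPKM in every library. Of the 5 genes given as tanycyte markers, Rax was near 0 and Dio2 below 1 RPKM in every library, Gpr50 was at 1.05 to 2.60 RPKM, and Vim and Nes are also made by other cells, as Gpr50 is by neurons. The 5 genes therefore do not show tanycytes in these punches by themselves.

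**Figure D1:**
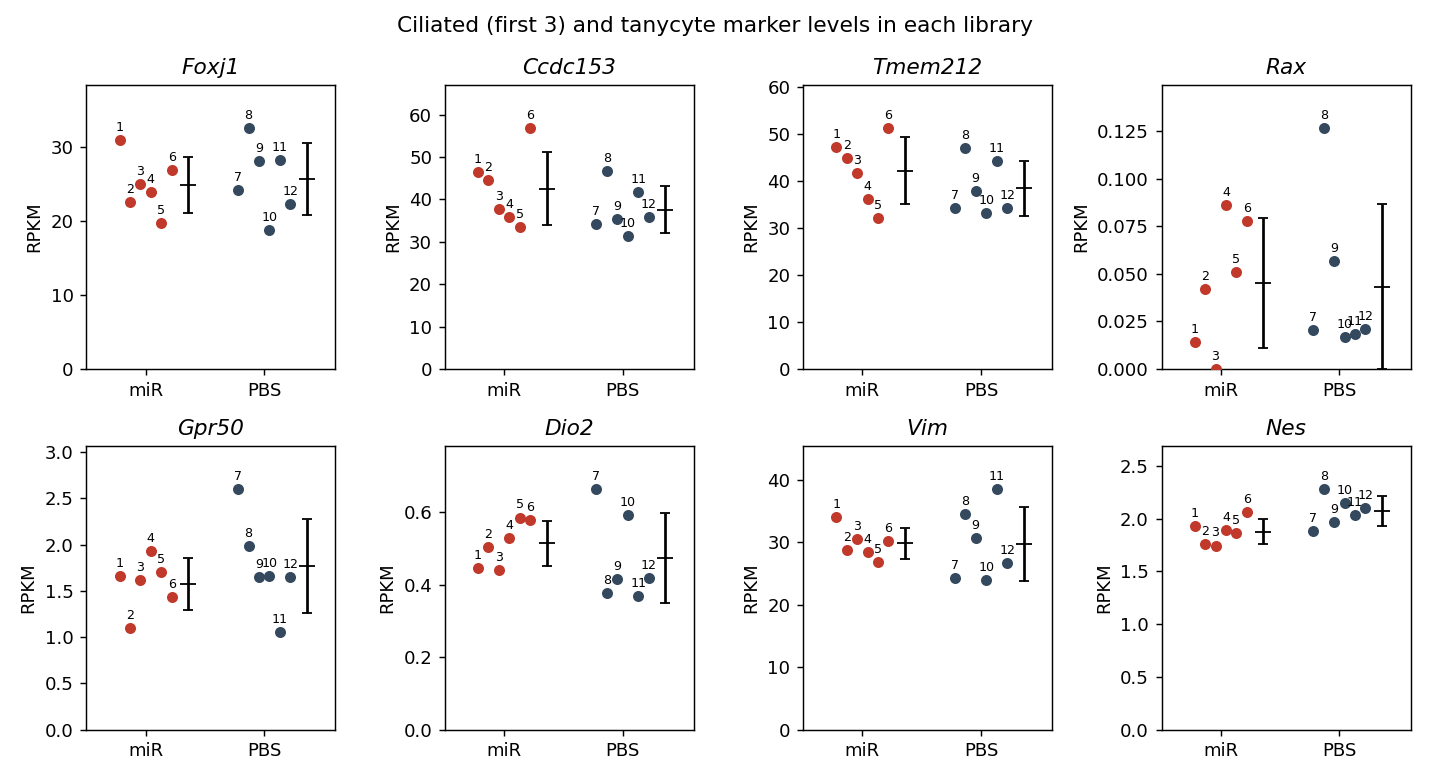
RPKM (vertical axis, from 0) of each of the 8 genes in every miR (left, red) and PBS (right, dark blue) library, with the replicate number beside each point and the group mean ± SD as a bar. The groups overlap for all 8 genes, and Rax lies at or below 0.126 RPKM in every library.

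Foxj1 encodes a forkhead transcription factor that switches on the genes of motile cilia. It lies on chromosome 11 from 116192018 to 116196668 on the minus strand (mm9). Its level had a lowest value of 19.8, a median of 24.5 and a highest value of 31.0 RPKM in miR libraries, against 18.7, 26.2 and 32.6 RPKM in PBS libraries. The group ranges lay almost on top of each other, and 2 of 6 miR libraries were above the PBS median. Foxj1 averaged 24.9 ± 3.85 RPKM in miR libraries and 25.7 ± 4.93 RPKM in PBS libraries (SD, n = 6 each). The log2 difference was -0.04 (SE 0.13, 95% interval -0.31 to 0.23, limma adjusted p = 0.884). Its direction turned with the processing: the difference was 0.11 after correction for transcript GC content and 0.05 with library weights, with no call in either.

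Ccdc153 encodes a coiled-coil protein used as a marker of ciliated ependyma. It lies on chromosome 9 from 44048760 to 44055389 on the plus strand (mm9). Its lowest, median and highest levels were 33.6, 41.2 and 56.8 RPKM in miR libraries, against 31.4, 35.7 and 46.8 RPKM in PBS libraries. The highest value of all was miR replicate 6, and 5 of 6 miR libraries were above the PBS median, but the ranges overlapped over most of their length. Ccdc153 averaged 42.5 ± 8.61 RPKM in miR libraries and 37.6 ± 5.61 RPKM in PBS libraries (SD, n = 6 each), a log2 difference of 0.17 (SE 0.12, 95% interval -0.10 to 0.43, limma adjusted p = 0.442). The interval holds no difference as well as a miR level up to 1.35-fold that of PBS.

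Tmem212, which encodes a membrane protein of unknown function and marks the same cells, lies on chromosome 3 from 27764987 to 27795290 on the minus strand (mm9). Its lowest, median and highest levels were 32.2, 43.3 and 51.3 RPKM in miR libraries, against 33.3, 36.2 and 47.1 RPKM in PBS libraries. As for Ccdc153, miR replicate 6 was the highest library and 5 of 6 miR libraries were above the PBS median. Tmem212 averaged 42.3 ± 7.12 RPKM in miR libraries and 38.5 ± 5.85 RPKM in PBS libraries (SD, n = 6 each), a log2 difference of 0.13 (SE 0.12, 95% interval -0.12 to 0.38, limma adjusted p = 0.531).

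Rax encodes a homeobox transcription factor needed for the eye field and for tanycytes, and among the 8 genes it is the one most restricted to tanycytes. It was near the detection limit. Its lowest, median and highest levels were 0, 0.046 and 0.0861 RPKM in miR libraries, against 0.017, 0.021 and 0.126 RPKM in PBS libraries. In reads these levels correspond to about 0 to 4 reads per miR library and about 1 to 7 reads per PBS library. The single 0, in miR replicate 3, allows a level of up to 0.0514 RPKM (3 reads, counting error only). At this depth a difference was not detectable (0.01 on the log2 scale, 95% interval -0.11 to 0.12, limma adjusted p = 0.968 in the fit without a filter), and the pseudocount is larger than every Rax value.

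Gpr50 encodes an orphan receptor related to the melatonin receptors that does not bind melatonin and is found in tanycytes and in neurons of the dorsomedial hypothalamus. It lies on chromosome X from 68916942 to 68921264 on the plus strand (mm9). Its lowest, median and highest levels were 1.10, 1.64 and 1.93 RPKM in miR libraries, against 1.05, 1.65 and 2.60 RPKM in PBS libraries. PBS replicate 7 was the highest library and PBS replicate 11 the lowest, so the PBS range enclosed the miR range. Gpr50 averaged 1.57 ± 0.282 RPKM in miR libraries and 1.77 ± 0.509 RPKM in PBS libraries (SD, n = 6 each), a log2 difference of -0.11 (95% interval -0.41 to 0.20, limma adjusted p = 0.675). Its relatives, the melatonin receptors Mtnr1a and Mtnr1b, were too low to be tested. Mtnr1a averaged 0.105 RPKM in miR libraries and 0.174 RPKM in PBS libraries.

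Dio2 encodes the deiodinase that turns thyroxine into its active form, the enzyme through which tanycytes set local thyroid hormone. Astrocytes also make it. It lies on chromosome 12 from 91962992 to 91976878 on the minus strand (mm9). Its lowest, median and highest levels were 0.442, 0.517 and 0.586 RPKM in miR libraries, against 0.369, 0.418 and 0.665 RPKM in PBS libraries. All 6 miR libraries were above the PBS median, yet PBS replicates 7 and 10 were above every miR library. Dio2 averaged 0.515 ± 0.0623 RPKM in miR libraries and 0.473 ± 0.124 RPKM in PBS libraries (SD, n = 6 each), a log2 difference of 0.07 (95% interval -0.10 to 0.24, limma adjusted p = 0.699 in the fit without a filter). About 88.4 reads per library stood behind its mean level.

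Vim and Nes encode the intermediate filament proteins vimentin and nestin, which tanycytes share with neural stem cells, and which vessels also make. Vim lies on chromosome 2 from 13495938 to 13504453 and Nes on chromosome 3 from 87775015 to 87784373, both on the plus strand (mm9). Vim had lowest, median and highest levels of 26.9, 29.5 and 34.1 RPKM in miR libraries, against 23.9, 28.7 and 38.5 RPKM in PBS libraries. Its PBS range was wider at both ends than its miR range. Vim averaged 29.8 ± 2.48 RPKM in miR libraries and 29.8 ± 5.91 RPKM in PBS libraries (SD, n = 6 each), a log2 difference of 0.02 (95% interval -0.21 to 0.25, limma adjusted p = 0.927) whose sign turned without the 4 PBS libraries of high Meg3 (-0.04).

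Nes had lowest, median and highest levels of 1.74, 1.88 and 2.07 RPKM in miR libraries, against 1.88, 2.07 and 2.28 RPKM in PBS libraries. Its groups overlapped between 1.88 and 2.07 RPKM, and 0 of 6 miR libraries were above the PBS median. Nes averaged 1.87 ± 0.119 RPKM in miR libraries and 2.07 ± 0.140 RPKM in PBS libraries (SD, n = 6 each). The log2 difference was -0.11 (95% interval -0.25 to 0.02, limma adjusted p = 0.312). A 2-sided exact permutation test of Nes alone gave p = 0.0281, unadjusted, and was the only one of the 8 such tests under 0.05. Without the 4 PBS libraries of high Meg3 the difference was -0.05.

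**Figure D2:**
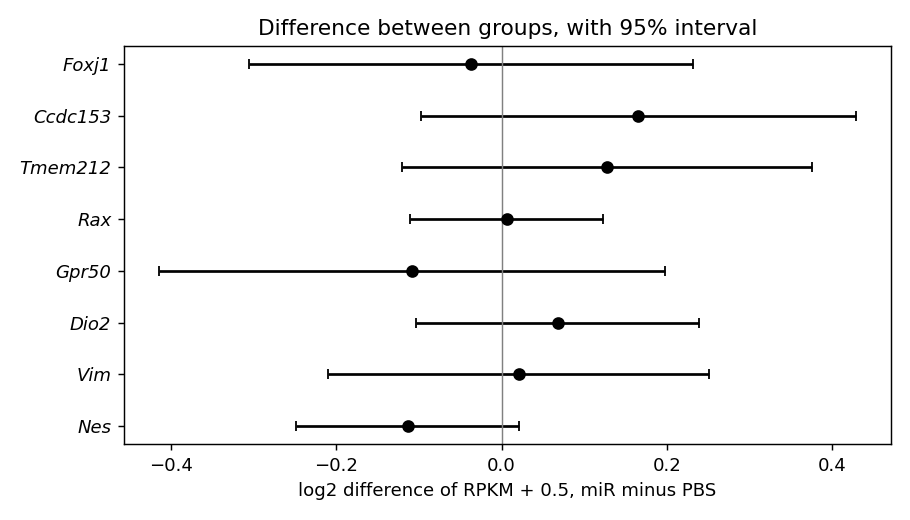
Difference in log2(RPKM + 0.5), miR minus PBS (horizontal axis), for each gene, with bars for the 95% interval from limma on 6 miR and 6 PBS libraries. All 8 intervals cross 0, and that of Gpr50, from -0.41 to 0.20, is the widest.

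The order of the mean levels over all 12 libraries was Tmem212 (40.4 RPKM), Ccdc153 (40.1), Vim (29.8), Foxj1 (25.3), Nes (1.97), Gpr50 (1.67), Dio2 (0.494) and Rax (0.0442). In 2 cases genes did not separate in every library. Tmem212 was above Ccdc153 in 9 of 12 libraries, and Nes was above Gpr50 in 10 of 12. Each of the other 5 neighbouring pairs kept its order in 12 of 12 libraries, Vim and Foxj1 narrowly, with a ratio of 1.00 to 1.36. The 3 ciliated markers were each at least 8.72 times as high as Nes in every library, and Vim was the one tanycyte marker among them in level.

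**Figure D3:**
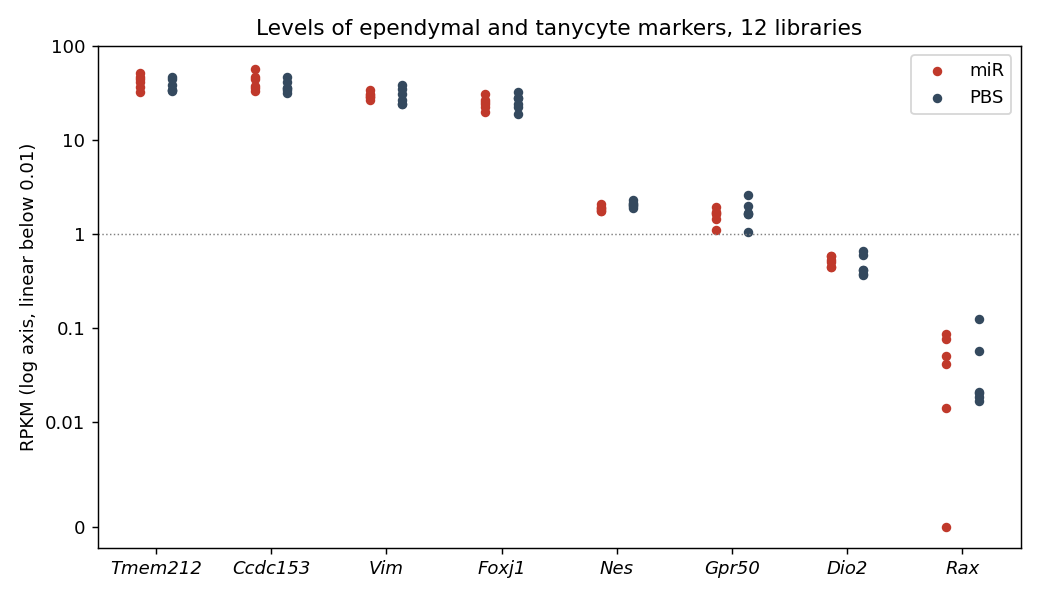
RPKM of the 8 genes (vertical axis, logarithmic, linear below 0.01) in miR (red, left) and PBS (dark blue, right) libraries, in order of their mean, with a dotted line at the filter of 1 RPKM. Tmem212, Ccdc153, Vim and Foxj1 lie above 18 RPKM in every library, and Dio2 and Rax lie below 1 RPKM in every library.

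Within a group, the ciliated markers and Vim varied more between animals than most genes of like level. The within-group SD of Foxj1 was 0.25 on the log2 scale, and 95.7% of 4066 genes of like level had a lower one, with a median of 0.11. The same share was 95.3% for Ccdc153 (SD 0.24), 94.6% for Tmem212 (SD 0.23), 92.7% for Vim (SD 0.21) and 83.7% for Gpr50 (SD 0.27). Nes was the reverse: its SD was 0.08, and only 2.57% of 3307 genes of like level had a lower one.

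The ciliated markers were high and low in the same animals. Correlations were computed for all 28 pairs of the 8 genes over the 12 libraries, on the log2 scale, with permutation tests of 100000 resamples and adjustment over the 28. Ccdc153 and Tmem212 gave Pearson r = 0.946 (permutation p = 1e-05, the smallest possible, adjusted 0.00028) and Spearman rho = 0.958. Without the 2 libraries farthest from the median of Ccdc153, r was 0.939, and with the group means removed it was 0.942. Over 18 alternatives of processing and left-out libraries r stayed between 0.936 and 0.960 and passed in each. The ratio of Tmem212 to Ccdc153 within a library ranged only from 0.903 to 1.11.

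Foxj1 followed less closely. With Tmem212 it gave r = 0.747 (permutation p = 0.00599, adjusted 0.0335) and rho = 0.755, and without the 2 farthest libraries r = 0.669. That call was lost in 11 of 18 alternatives, mostly those with a library left out. With Ccdc153 it gave r = 0.649 (permutation p = 0.0222, adjusted 0.104) and rho = 0.685, so this pair did not pass over the 12 libraries. With the group means removed r was 0.725 (permutation p = 0.00901, adjusted 0.0420), and after the GC correction r over the 12 libraries was 0.857.

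Vim was compared with each ciliated marker. With Foxj1 it gave r = 0.814 (permutation p = 0.00128, adjusted 0.0179) and rho = 0.888, and r = 0.720 without the 2 farthest libraries. This call was lost without PBS replicate 8 (adjusted p = 0.0581), without PBS replicate 10 (adjusted p = 0.0668) and without the 4 libraries of high Meg3 (r = 0.708, adjusted p = 0.277, 8 libraries). With Tmem212, Vim gave r = 0.745 (permutation p = 0.00547, adjusted 0.0335) and rho = 0.741, and r = 0.838 without the 2 farthest libraries. This call was lost in 10 of 18 alternatives, among them the one without the 4 libraries of high Meg3 (r = 0.648, permutation adjusted p = 0.323). With Ccdc153, Vim gave r = 0.611 (permutation p = 0.0347, adjusted 0.122) and rho = 0.685 (adjusted 0.0686), which did not pass.

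Dio2 ran the other way. With Vim it gave r = -0.787 (permutation p = 0.00261, adjusted 0.0244) and rho = -0.797, and r = -0.642 without the 2 farthest libraries. Within the miR group r was -0.698 and within the PBS group -0.859, each over 6 libraries. Without the 4 PBS libraries of high Meg3 r was -0.915 (adjusted p = 0.0277), but the call was lost under median scaling (adjusted p = 0.0582) and without PBS replicate 7, 8, 10 or 11. No pair with Rax, Gpr50 or Nes passed, and of the 28 pairs 5 passed in all by Pearson r and 5 by Spearman rho.

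**Figure D4:**
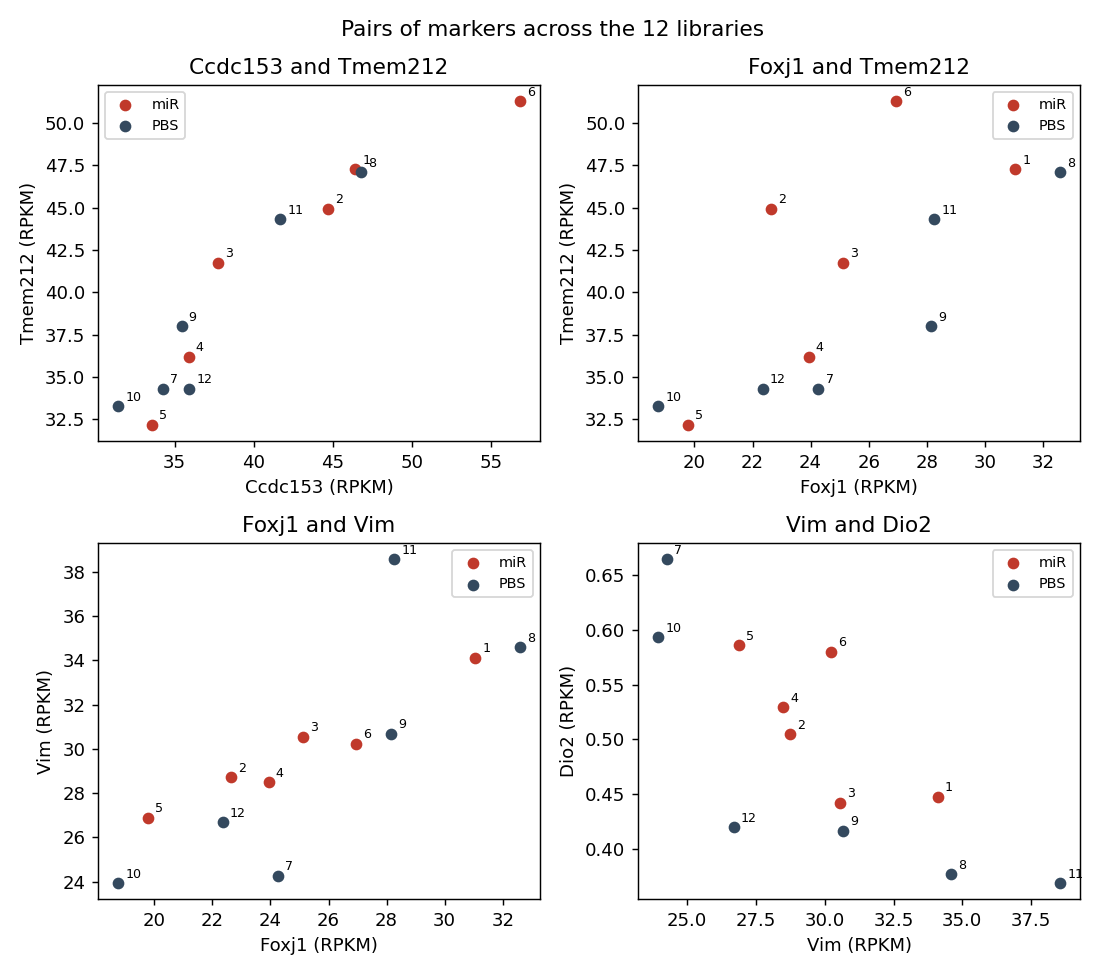
The 4 pairs of genes in the 12 libraries, both axes in RPKM, miR in red and PBS in dark blue, with replicate numbers beside the points. Ccdc153 and Tmem212 lie close to a line (r = 0.946), Foxj1 follows Tmem212 and Vim more loosely, and Dio2 is low where Vim is high (r = -0.787).

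The level of Foxj1 relative to the other ciliated markers was compared because of this looser relation, after the values were seen. The ratio of Foxj1 to Ccdc153 averaged 0.595 ± 0.0872 in miR libraries and 0.683 ± 0.0697 in PBS libraries (SD, n = 6 each), and all 6 miR libraries were below the PBS median. The 2-sided exact permutation test gave p = 0.0974, adjusted to 0.438 over the 9 ratios examined. The ratio of Foxj1 to Tmem212 averaged 0.594 ± 0.0661 in miR libraries and 0.665 ± 0.0624 in PBS libraries (SD, n = 6 each, exact permutation p = 0.0952, adjusted 0.438). The Foxj1 transcript has 61.4% GC, against 50.3% in Ccdc153 and 48.6% in Tmem212. After the GC correction the log2 difference of the Foxj1 to Ccdc153 ratio was -0.08, against -0.21 as deposited. That of the Foxj1 to Tmem212 ratio was -0.02, against -0.17 as deposited. Without PBS replicate 10 it was -0.21 (exact permutation p = 0.0260, unadjusted), the only 1 of its 16 alternatives with a p below 0.05. For the Foxj1 to Ccdc153 ratio, 0 of 16 alternatives had a p below 0.05. The part of GC content in these ratios was not tested.

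Upstream of Ccdc153 and Tmem212, the pair that varied most alike, the letters were read for the motifs of the factors known to act on ciliary genes. These are RFX factors, which bind the X-box, and Foxj1, a forkhead factor. The windows run from 250 bases before to 50 after the annotated start (RefSeq, GRCm38.p6, a later build than that of the deposited values), 5′ to 3′ on the gene's strand, at chr9:44240427-44240726 (plus strand) and chr3:27896319-27896618 (minus strand). Capitals mark a match to the outer bases of an X-box, GTT and AAC with 8 free bases between them.
Ccdc153: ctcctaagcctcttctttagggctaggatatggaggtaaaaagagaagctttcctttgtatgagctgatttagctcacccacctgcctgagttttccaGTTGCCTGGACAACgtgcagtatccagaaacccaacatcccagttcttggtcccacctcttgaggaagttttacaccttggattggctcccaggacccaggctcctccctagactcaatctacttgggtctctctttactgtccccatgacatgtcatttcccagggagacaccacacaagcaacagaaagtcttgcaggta
Tmem212: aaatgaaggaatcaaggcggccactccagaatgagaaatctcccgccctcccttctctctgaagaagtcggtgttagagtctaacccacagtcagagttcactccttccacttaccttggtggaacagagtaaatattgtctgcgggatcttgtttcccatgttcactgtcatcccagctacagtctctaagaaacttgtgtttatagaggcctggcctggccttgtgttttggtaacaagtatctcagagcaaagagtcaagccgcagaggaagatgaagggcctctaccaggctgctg
The match in Ccdc153 starts 152 bases before the annotated start. Tmem212 holds none, and holds the forkhead core TGTTT 99, 51 and 24 bases before its start. The windows of Gpr50, Vim and Nes were searched as well. Gpr50, which is not a ciliary gene, also holds the core TGTTT, on the opposite strand 177 bases before its start. Vim and Nes hold no match to these motifs. Promoters of Foxj1, Rax and Dio2 are not reported here.

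These letters are common. Counting both strands, the outer X-box form occurred in 9.84% of 61 windows of the ciliary genes listed below, in 4.62% of 13396 windows of tested genes and in 5.32% of 32851 windows searched over all genes. The core TGTTT occurred in 52.5%, 37.5% and 50.5% of the same windows, and the longer forkhead form TGTTTAC, which contains it, in 6.56%, 2.54% and 3.65%. The fuller X-box form, GTNNCC and GNAAC with NNN between them, occurred in 18.0% of the windows of ciliary genes, against 2.93% of tested genes and 2.17% of windows of all genes. The windows of Ccdc153 and Tmem212 hold no match to this fuller form. Motifs were chosen after the letters had been read, so these shares are descriptions. The fuller and the outer form can cover the same bases. Matches to the fuller form in 4 genes of the axoneme and its assembly are shown in capitals, as read on the gene's strand. These windows were picked because they hold both forms, so many of the letters the matches share were set by that choice.
Spag16: GTTGCCGTAGTAAC
Enkur: GTTTCCTTAGCAAC
Hydin: GTTGCTGTGGCAAC
Dnaaf2: GTTACTATGGCAAC
They start 103 bases (Spag16), 12 bases (Enkur), 21 bases (Hydin) and 17 bases (Dnaaf2) before the annotated start, and those of Hydin and Dnaaf2 match the form on the opposite strand. The tektin gene Tekt4, whose window also holds both forms, is not shown.

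Other genes of motile cilia were described from 5 lists: ciliary transcription factors, axonemal dynein arms, radial spokes with central pair and nexin links, dynein arm assembly factors, and other genes of ciliated ependyma. Of their 76 names 70 were in the table and 65 were tested. Of the 65, 47 averaged higher in miR libraries and 18 lower, with a median log2 difference of 0.07, against 7015 higher and 6258 lower of all genes tested, with a median of 0.01. None passed an adjusted p of 0.05 (0 of 65, limma). At an unadjusted p below 0.05, 5 of 65 were higher in miR (9.12% of all genes tested) and 2 were lower (11.1%). Without miR replicate 6, the library highest in Ccdc153 and Tmem212, the split was 37 higher and 27 lower. Without the 4 PBS libraries of high Meg3 it was 39 higher and 26 lower. The summed level of the 70 genes was 623 to 862 RPKM in miR libraries and 594 to 766 RPKM in PBS libraries.

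Of 4 tested ciliary transcription factors 2 averaged higher, among them Rfx3 (5.85 ± 0.326 RPKM in miR libraries, 5.44 ± 0.672 in PBS libraries, limma adjusted p = 0.424), and 2 lower, among them Rfx2 (3.42 ± 0.330 and 3.91 ± 0.820 RPKM, miR and PBS, adjusted p = 0.430). Mcidas and Gmnc, early regulators of multiciliated cells, were below the filter. Of 14 axonemal dynein genes 9 averaged higher and 5 lower, with the docking gene Ccdc114 at 3.05 ± 0.555 RPKM in miR libraries and 3.94 ± 1.15 RPKM in PBS libraries (adjusted p = 0.266), and Dnahc1, a dynein heavy chain gene, at 6.81 ± 0.544 and 7.49 ± 0.980 RPKM (miR and PBS, adjusted p = 0.401). Of 15 genes of radial spokes, central pair and nexin links 10 averaged higher and 5 lower. The central pair genes Spag16 (3.62 ± 0.473 RPKM in miR libraries, 2.87 ± 0.548 in PBS libraries, adjusted p = 0.186) and Spag6 (10.5 ± 0.882 and 8.94 ± 1.51 RPKM, miR and PBS, adjusted p = 0.219) had the smallest p-values there. Of 7 assembly factors 3 averaged higher and 4 lower, with Zmynd10 at 7.08 ± 0.916 RPKM in miR libraries and 8.23 ± 1.48 RPKM in PBS libraries (adjusted p = 0.302), and Dyx1c1 at 4.04 ± 0.396 and 3.68 ± 0.436 RPKM (miR and PBS, adjusted p = 0.380).

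Among the 5 ciliary lists, that of other genes of ciliated ependyma leaned most to one side. Its genes varied together between animals (median r 0.805 with Ccdc153 and 0.827 with Tmem212, group means removed). The 25 genes are therefore not 25 separate observations. Of 25 genes, 23 averaged higher in miR libraries and 2 lower, with a median log2 difference of 0.14 and 0 past the adjusted threshold (3 higher and 1 lower at an unadjusted p below 0.05, limma, against 9.12% and 11.1% of all genes tested). Calml4, a calmodulin-like protein, averaged 16.1 ± 2.39 RPKM in miR libraries and 13.2 ± 2.37 RPKM in PBS libraries (adjusted p = 0.205). Tekt2, a tektin of the ciliary microtubules, averaged 4.28 ± 0.660 RPKM in miR libraries and 5.43 ± 0.982 RPKM in PBS libraries (adjusted p = 0.197). Rarres2, which encodes chemerin, was the most abundant of the list at 109 RPKM in miR libraries and 99.1 RPKM in PBS libraries. Without miR replicate 6 the split was 18 higher and 6 lower of 24 tested, and the median was 0.08. Without the 4 PBS libraries of high Meg3 it was 19 higher and 6 lower, with a median of 0.07.

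How far these ciliary genes followed each marker from animal to animal was described by Pearson r over the 12 libraries after group means were removed, with no test. With Foxj1, r was above 0 for 65 of 65 genes, with a median of 0.622, and above 0.5 for 47, against a median of 0.064 and 6.63% above 0.5 among all genes tested. With Tmem212 it was above 0 for 65 of 65, with a median of 0.708 and 54 above 0.5 (9.67% of all genes tested), and with Ccdc153 for 63 of 65, with a median of 0.721 and 50 above 0.5 (10.3%). Rsph1, a radial spoke head protein, had r = 0.903 with Foxj1 and 0.965 with Tmem212. Tekt2 had the lowest r with Foxj1, 0.018.

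For Vim, r was above 0 for 64 of 65 ciliary genes, with a median of 0.567 and 39 above 0.5 (8.89% of all genes tested). With the 8 other tanycyte genes the median r of Vim was only 0.121, against 0.083 over all genes tested. By these medians, Vim followed the ciliary genes more closely than the other tanycyte genes, whose r with Vim ran from -0.46 to 0.44. With the 11 neuron markers of the PVN its median r was 0.510, with 6 above 0.5, so the relation was not particular to ciliary genes. For Gpr50, r was above 0 for 6 of the 65 ciliary genes, with a median of -0.28. The median was 0.260 for Nes. Over 18 alternatives the number of ciliary genes with r above 0 was 64 to 65 for Foxj1, 62 to 64 for Ccdc153 and 62 to 65 for Tmem212 and for Vim.

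**Figure D5:**
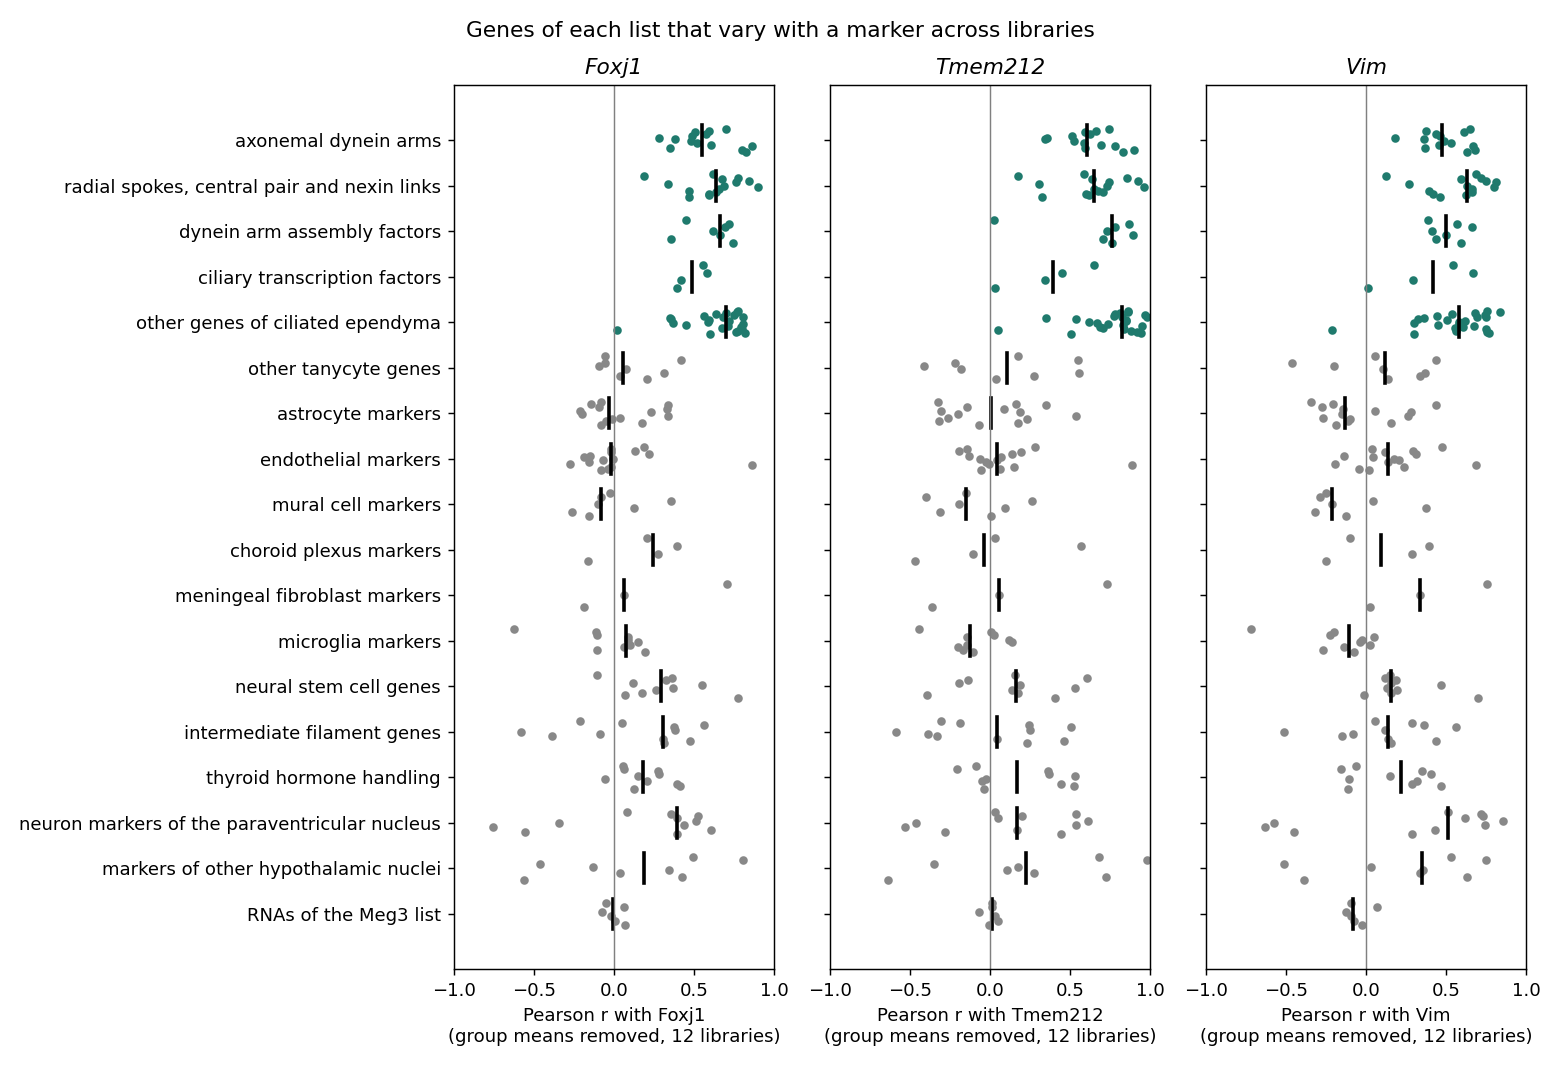
Pearson r (horizontal axis, group means removed, 12 libraries) of each tested gene of every list with Foxj1, Tmem212 and Vim, with ciliary lists in green, other lists in grey and bars for the medians. The medians of the 5 ciliary lists lie at 0.396 or above in each panel, and among the other lists the PVN neuron markers reach 0.397 with Foxj1 and 0.510 with Vim.

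For glia and vessels the same r lay near 0. The median r with Foxj1 was 0.056 for 8 other tanycyte genes, -0.03 for 14 astrocyte markers, -0.02 for 15 endothelial markers and -0.08 for 7 mural cell markers. It was higher for 11 neuron markers of the PVN (0.397), 11 intermediate filament genes (0.308) and 10 neural stem cell genes (0.293). One endothelial marker stood apart, the glucose transporter gene Slc2a1, with r = 0.865 with Foxj1 and 0.889 with Tmem212. It is known in ependymal cells as well as in vessels. The choroid plexus, which also carries Foxj1 and cilia and could enter a punch at the ventricle, was little represented. Of its 11 markers 4 were below 0.1 RPKM, and Ttr, its most abundant transcript, averaged 0.443 RPKM in miR libraries and 0.307 RPKM in PBS libraries. The summed level of the 11 markers was 9.24 to 12.8 RPKM in miR libraries and 8.94 to 14.3 RPKM in PBS libraries, and of its 4 tested markers 1 averaged higher (Clic6, 6.08 ± 0.850 and 5.42 ± 0.918 RPKM, miR and PBS) and 3 lower (Otx2 among them, 1.46 ± 0.941 and 1.67 ± 0.872 RPKM).

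Over all tested genes, the 3 most alike each marker by the same r were named. They were Gas2l2, a gene of the ciliary base (r = 0.939), the homeobox gene Msx1 (0.924) and the dynein light chain gene Tctex1d4 (0.915) for Foxj1. They were the checkpoint kinase gene Chek2 (0.956), 1700094D03Rik (0.952) and Tmem212 (0.942) for Ccdc153. For Tmem212 they were the histamine-forming enzyme gene Hdc (0.979), 1700094D03Rik (0.975) and Fam166b (0.974). For Vim they were Dact1 (0.914), Unc5cl (0.911) and C130039O16Rik, now named Mideas (0.910). For Gpr50 they were Cabp7 (0.909), Tmem132d (0.882) and Gatc (0.880). For Nes they were BC048609, now named Tmem262 (0.883), Mxra7 (0.869) and Lmo2 (0.861). Among the 50 genes most alike each marker, ciliary list genes numbered 5 for Foxj1, 11 for Ccdc153, 13 for Tmem212, 3 for Vim and 0 for Gpr50 and Nes. Those lists are 0.490% of the genes tested.

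Other tanycyte genes differed widely in mean level, from 0.0157 RPKM to 18.1 RPKM, the latter for Col25a1. Of 14 with a value 8 were tested, 6 of them averaging higher in miR libraries and 2 lower, with a median log2 difference of 0.13 and 0 called (0 also at an unadjusted p below 0.05, limma). Six6, a homeobox gene of the basal hypothalamus, averaged 2.76 ± 1.41 RPKM in miR libraries and 1.71 ± 0.759 RPKM in PBS libraries (adjusted p = 0.351). Col23a1, a membrane collagen gene, averaged 1.07 ± 0.138 RPKM in miR libraries and 1.24 ± 0.247 RPKM in PBS libraries (adjusted p = 0.421). Without the 4 PBS libraries of high Meg3, 4 averaged higher and 4 lower.

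Thyroid hormone genes around Dio2 showed no call either. Of 10 tested, 6 averaged higher and 4 lower, with a median log2 difference of 0.02 (0 past the adjusted threshold, 1 higher and 1 lower at an unadjusted p below 0.05, limma, against 9.12% and 11.1% of all genes tested). Klf9, a transcription factor that responds to thyroid hormone, averaged 15.5 ± 0.855 RPKM in miR libraries and 13.2 ± 2.18 RPKM in PBS libraries (adjusted p = 0.201). Slco1c1, a thyroxine transporter gene, averaged 8.80 ± 0.717 RPKM in miR libraries and 9.76 ± 0.567 RPKM in PBS libraries (adjusted p = 0.207). Dio3, which encodes the inactivating deiodinase, averaged 0.050 RPKM in miR libraries and 0.048 RPKM in PBS libraries. Trh, the releasing hormone made in the PVN, averaged 168 ± 22.8 RPKM in miR libraries and 167 ± 20.3 RPKM in PBS libraries.

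Among 11 tested intermediate filament genes other than Vim and Nes, 7 averaged higher and 4 lower, with a median of 0.01 and 0 called (2 lower at an unadjusted p below 0.05, limma, against 11.1% of all genes tested). Plec, which encodes the filament linker plectin, averaged 6.66 ± 0.578 RPKM in miR libraries and 8.71 ± 1.11 RPKM in PBS libraries, with no overlap between the groups (0.482% of all genes tested) and an adjusted p of 0.174. Lmnb2, a lamin gene, averaged 6.78 ± 0.570 and 7.89 ± 0.753 RPKM (miR and PBS, adjusted p = 0.177), and the astrocyte filament gene Gfap 45.8 ± 11.7 and 43.0 ± 10.5 RPKM (miR and PBS, adjusted p = 0.786). Of 10 neural stem cell genes 4 averaged higher and 6 lower (median -0.03). At an unadjusted p below 0.05, 3 of them were higher and 1 lower (limma, against 9.12% and 11.1% of all genes tested). Slc1a3 averaged 227 ± 7.14 RPKM in miR libraries and 200.1 ± 23.3 RPKM in PBS libraries (adjusted p = 0.186), and Fabp7 57.1 ± 5.39 and 48.8 ± 6.54 RPKM (miR and PBS, adjusted p = 0.197).

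For Nes, the median r was 0.501 with the 15 endothelial markers, 14 of them above 0, 0.250 with the 7 mural cell markers and 0.260 with the ciliary genes, against 0.049 over all genes tested (12 libraries, group means removed, described only). It was 0.426 with the 6 RNAs listed with Meg3 and Leng8, 5 of them above 0. Among the 50 genes most alike Nes, 0 were on the endothelial list and 0 on the mural list. All 15 endothelial markers averaged lower in miR libraries, with a median log2 difference of -0.14 and 6 at an unadjusted p below 0.05 (11.1% of all genes tested), and so did all 7 tested mural cell markers, with a median of -0.24 and 5 at an unadjusted p below 0.05. None passed the adjusted threshold (0 of 22, limma). Cdh5 (1.73 ± 0.273 and 2.17 ± 0.209 RPKM, miR and PBS, adjusted p = 0.174) and Eng (2.99 ± 0.380 and 3.92 ± 0.767 RPKM, adjusted p = 0.177) had the smallest p-values of the endothelial markers. Among mural markers these were Cspg4 (2.13 ± 0.193 and 2.61 ± 0.238 RPKM, miR and PBS) and Vtn (11.4 ± 0.898 and 17.0 ± 4.98 RPKM), both at an adjusted p of 0.174. Cldn5, of tight junctions, averaged 10.3 ± 2.91 RPKM in miR libraries and 13.996 ± 1.82 RPKM in PBS libraries, and Pdgfrb, of pericytes, 2.90 ± 0.253 and 3.46 ± 0.459 RPKM (miR and PBS). The summed level of the endothelial markers was 112 to 133 RPKM in miR libraries and 118 to 151 RPKM in PBS libraries, and that of the mural markers 32.99 to 41.5 RPKM in miR libraries and 36.2 to 55.1 RPKM in PBS libraries. The ratio of Nes to the endothelial gene Pecam1, chosen after the values were seen, averaged 0.515 ± 0.0153 in miR libraries and 0.517 ± 0.0537 in PBS libraries (SD, n = 6 each, exact permutation p = 0.994). All 6 miR libraries were below the PBS median of 0.535, and the lowest library, at 0.422, was PBS replicate 10. Without the 4 PBS libraries of high Meg3 the medians were -0.06 for the endothelial and -0.03 for the mural markers.

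Markers of the remaining cell types are given for what else the punches held. Of 14 astrocyte markers 12 averaged higher and 2 lower in miR libraries, with a median log2 difference of 0.14 and a summed level of 1520 to 1671 RPKM in miR libraries and 1296 to 1598 RPKM in PBS libraries. At an unadjusted p below 0.05, 6 of the 14 were higher and 0 lower (limma, against 9.12% and 11.1% of all genes tested). Gjb6, a connexin gene, averaged 32.8 ± 1.36 and 28.7 ± 1.10 RPKM (miR and PBS, no overlap, as in 0.482% of all genes tested, adjusted p = 0.174), and Aqp4, a water channel gene, 28.6 ± 2.26 and 23.6 ± 4.09 RPKM (adjusted p = 0.179). The astrocyte median was -0.0029 without the 4 PBS libraries of high Meg3. Of 10 microglia markers 8 averaged higher and 2 lower (median 0.08), among them Aif1 (4.17 ± 0.300 and 3.17 ± 0.447 RPKM, miR and PBS, no overlap, as in 0.482% of all genes tested). All 3 tested meningeal fibroblast markers averaged lower (median -0.33), among them Dcn (1.99 ± 0.267 and 2.62 ± 0.398 RPKM, miR and PBS) and Igf2 (3.01 ± 0.627 and 4.09 ± 0.627 RPKM). At an unadjusted p below 0.05, 2 microglia markers were higher and 0 lower, and 2 meningeal markers were lower and 0 higher. Of 11 neuron markers of the PVN 7 averaged higher and 4 lower (median 0.02), with Rbfox3 at 22.9 ± 1.69 and 25.9 ± 3.29 RPKM, Syt1 at 186 ± 20.1 and 171 ± 12.7 RPKM, Avp at 800.2 ± 246 and 1039 ± 382 RPKM, Oxt at 2704 ± 942 and 2646 ± 1010 RPKM and Sim1 at 8.43 ± 1.30 and 7.66 ± 2.24 RPKM (miR and PBS in each). Of 8 markers of other hypothalamic nuclei 5 averaged higher and 3 lower (median 0.08), with Pmch, of the lateral hypothalamus, at 12.7 ± 27.0 and 1.63 ± 1.08 RPKM (miR and PBS). Its miR mean rests on 1 library at 67.9 RPKM, and its medians were 1.35 RPKM in miR libraries and 1.09 RPKM in PBS libraries. Of the neuron markers and those of other nuclei, 0 had an unadjusted p below 0.05. None of the markers of these remaining cell types passed the adjusted threshold, and the part of cell makeup in the values of the 8 genes was not tested.

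The injected miRNAs were set against the 3′ untranslated regions of the 8 genes, to show which of them hold letters that pair with a seed. Mature sequences (RefSeq) are given 5′ to 3′ with the seed, bases 2 to 8, in capitals. For 29c, 30a, 30c, 32 and 204 the labels name no arm, and the arm usually meant is shown. The 2 members of the miR-30 family share 1 seed.
miR-30a-5p: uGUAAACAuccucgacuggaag
miR-30c-5p: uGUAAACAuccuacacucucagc
miR-29c-3p: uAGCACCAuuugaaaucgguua
miR-32-5p: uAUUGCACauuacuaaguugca
miR-204-5p: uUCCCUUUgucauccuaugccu
miR-532-3p: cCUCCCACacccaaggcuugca
MiR-193-5p, miR-375 and miR-698 were not used here.

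Of the 8 genes only Dio2 held matches to these seeds. Its 3′ untranslated region is the longest, at 4860 bases, against 127 bases (Tmem212) to 1168 bases (Gpr50) in the other 7. It holds 2 matches for miR-29c, at bases 868 and 4785, 1 for both miR-30 members, at base 2676, and 1 for miR-204, at base 2060, counted from the first base after the stop codon. They are shown 5′ to 3′ with the letters complementary to the seed in capitals.
Dio2, miR-29c, base 868: agggggtcTGGTGCTgatgtgtt
Dio2, miR-29c, base 4785: tataatatTGGTGCTgagtggta
Dio2, miR-30a and miR-30c: ataggataTGTTTACatggggat
Dio2, miR-204: tctggggaAAAGGGAtaatgggg
Such matches are frequent: of 12334 untranslated regions of tested genes 13.8% hold one for miR-29c, 15.1% for the miR-30 members, 14.9% for miR-204, 14.5% for miR-532-3p and 7.05% for miR-32. The letters of the miR-30 site are those of the forkhead form TGTTTAC. As given above, Dio2 averaged 0.515 RPKM in miR libraries and 0.473 RPKM in PBS libraries, and the difference did not pass.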

How the data were processed

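RNA of PVN punches from 12 males, 6 miR and 6 PBS, was sequenced on 2 lanes. The authors deposited 1 table of RPKM values, with 30399 transcript rows and a column for every animal, and 0 further columns of values. Build mm9 and edgeR are named in the submitters' processing notes, without their role. How reads were aligned, counted and scaled is not given in the sources used here. Rows that share reads were not separated. Depth was estimated from the steps between low values of 968 olfactory receptor rows, of which only 11 to 25 values per library entered the estimate. Depths and read numbers are therefore approximate.

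The row of highest mean stood for each gene. Values were taken as log2(RPKM + 0.5), which understates changes of low genes. Limma 3.58.1 (R 4.3.3) was fitted without covariates, with a variance trend, 2-sided, on the 13273 genes whose mean reached 1 RPKM, at a Benjamini-Hochberg threshold of 0.05. Dio2 and Rax came from the same fit without a filter. Single genes and ratios were compared by exact permutation over 924 labelings, and pairs of genes by 100000 resamples. Tables were made in Python 3.11.15 with pandas 2.3.3 and scipy 1.17.1, and drawn with matplotlib 3.10.9. Of 230 list names, 212 matched by name, 12 by RefSeq accession and 6 not. Genes are named as members (all 8), as the 2 tested genes of smallest p of each list, as the 3 genes of highest r with each tested member, or as fixed tissue markers (Meg3, Leng8, Ttr, Gfap, Pecam1, Cldn5, Pdgfrb, Avp, Oxt and Sim1). Others were named after their values were seen. Of the genes the rule names, 1 is not reported here. The members and lists were chosen with earlier results of these data known.

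As alternatives, the pseudocount was set to 0.1 or 1 RPKM, the filter was dropped or raised to 5 RPKM, libraries were scaled to 1 median, quantile normalized, weighted by quality or corrected for GC content in 20 bins (known for 98% of tested genes), the variance trend was dropped or fitted robustly, rows of a gene were averaged, and each library was left out. Leaving out the 4 PBS libraries of high Meg3, and all alternatives of pairs and ratios, were added after the data were seen. Untranslated regions and GC content came from GENCODE M21 transcripts matched by RefSeq accession, and promoters and miRNAs from RefSeq. In a simulation of miR against PBS on 13273 genes, limma recovered 81% of changes of 0.5 and 99% of changes of 1 on the log2 scale, and 4.76% of calls were false. There 200 genes were changed and each gene was drawn independently. Differences shared by libraries, such as the 4 PBS libraries of high Meg3, were not simulated, so these shares do not give the power in the data.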

Additional observations from a re-analysis of the deposited data

Results flagged for a closer look

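Rax in PBS replicate 8 lay far from the other PBS libraries. Its level there was 0.126 RPKM (about 7 reads), and the next highest PBS library was at 0.0567 RPKM (about 3 reads). The gap made up 0.638 of the range of the 6 PBS libraries, past the critical value of Dixon's test for 6 values. It was the only flag among 34 groups of values examined, and chance alone flags about 1 group in 20. The cause was not tested.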

How the results depend on the processing

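No paired analysis was possible because replicates are numbered 1 to 6 in miR and 7 to 12 in PBS, with none shared. None of the 8 genes passed an adjusted p of 0.05 in any alternative run, and the lowest adjusted p was 0.0759, for Nes with library weights. The sign held in every alternative run for Ccdc153 (0.08 to 0.23), Tmem212 (0.07 to 0.20), Dio2 (0.01 to 0.12), Gpr50 (-0.21 to -0.01) and Nes (-0.15 to -0.04). A filter at 5 RPKM gives no value for Nes, Gpr50, Dio2 and Rax. The sign turned for Foxj1 with library weights (0.050) and the GC correction (0.11), for Rax with library weights (-0.029), and for Vim without the 4 PBS libraries of high Meg3 (-0.040). With 1 library left out, the difference ran from -0.12 to 0.034 for Foxj1, from -0.015 to 0.048 for Rax and from -0.037 to 0.10 for Vim. With library weights, 3025 of the 13273 genes tested passed the threshold (1436 higher). Of the 65 tested genes of the ciliary lists 7 passed there, a smaller share than among all genes tested. The count of genes past the threshold was 0 to 909 with 1 library left out. It was 909 without PBS replicate 7, 429 without PBS replicate 11 and 1 without miR replicate 3, and 0 in the other alternatives. The median of the other tanycyte genes was -0.0069 without the 4 PBS libraries of high Meg3. The causes were not tested. Depth limits Rax, with 7 reads or fewer per library.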

Other observations

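The relations with neuron genes of the PVN differed from gene to gene, and those named were picked after their values were seen. For Vim, with the group means removed, Pearson r over the 12 libraries was 0.742 with Sim1 and 0.734 with Otp, transcription factor genes of PVN neurons, and 0.721 with Crh, the stress hormone gene, but -0.63 with Snap25, -0.57 with Rbfox3 and -0.45 with Syt1, genes of neurons in general. For Gpr50, r was -0.71 with Sim1 and -0.72 with Crh, but 0.63 with Rbfox3. Among the 11 PVN neuron markers, the median r was 0.510 with Vim, 0.397 with Foxj1 and -0.19 with Gpr50. These values are descriptions without a test.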
